A study of Homo sapiens with 8 samples.

Results

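The genes described here are NEMP1 and 9 other genes of the inner nuclear membrane and the nuclear lamina: LBR, EMD, SUN1, SUN2, TMPO, LEMD3, LMNA, LMNB1 and LMNB2. They were chosen by symbol, and all 10 were found among the 60664 genes of both count tables. NEMP1 was picked because its level was higher in labelled libraries at the outer mitochondrial membrane (OMM), so its values there are a description without a test. The experiment was APEX-seq in HEK293T cells, which derive from human embryonic kidney and carry viral transforming genes. All groups expressed APEX2, a peroxidase engineered to attach biotin to RNA close to it, and biotinylated RNA was captured on streptavidin. The groups were 2 labelled OMM libraries, 2 unlabelled OMM controls, 2 labelled libraries with APEX2 in the nucleus (NLS) and 2 unlabelled NLS controls. The controls therefore measure RNA recovered without labelling and not the RNA of whole cells. The OMM libraries, titled trizol, came from a TruSeq kit for stranded mRNA (poly(A) selection), and the NLS libraries, titled ribominus, from a SMARTer stranded total RNA kit. The series description gives TRIzol for OMM and Proteinase K for NLS, whereas the sample labels name an RNeasy Plus kit throughout, and which was used cannot be settled here. Compartment and kit cannot be told apart. Whether libraries came from separate cultures is not stated in the labels. The p-values then reflect the spread of these libraries alone, and that spread may be technical.

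The nuclear envelope is a double membrane whose outer sheet is continuous with the endoplasmic reticulum (ER). Proteins of the inner sheet are generally made on ribosomes at the ER membrane and then move to the nucleus, where many bind the lamina, a meshwork of lamins that underlies the membrane. Lamins themselves are made in the cytosol and imported. Proteins with a single membrane anchor at their very end are inserted only after translation is complete. SUN proteins of the inner membrane pair with nesprins of the outer one in the LINC complex, which links the nucleus to the cytoskeleton. Proteins with a LEM domain, among them those of EMD, TMPO and LEMD3, bind the chromatin protein BAF.

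The members differ in how their proteins meet the membrane, and this was counted from their coding sequences. For each gene the longest coding transcript tagged as a consensus coding sequence (CCDS) was used (GENCODE 29, GRCh38). Stretches were counted in which a window of 19 codons encoded a mean Kyte-Doolittle hydropathy of at least 1.6. Such a value is a common sign of a membrane span. There were 4 such stretches in NEMP1, 6 in LBR, 2 in LEMD3 and 1 each in EMD, SUN1 and SUN2. TMPO had 0 in its longest form of 694 codons and 1 in each of its forms of 454, 414 and 345 codons. SUN1 forms of 278 and 257 codons had 0, and a NEMP1 form of 371 codons had 3. The 3 lamin genes had 0. The 2 coding runs first shown hold the most hydrophobic window of NEMP1, the multi-span member picked for its OMM level, and of LBR, the member with the most stretches and the nearest to it in values. Bases are written 5′ to 3′ on the coding strand, and capitals mark that window.
NEMP1 (codons 158 to 186): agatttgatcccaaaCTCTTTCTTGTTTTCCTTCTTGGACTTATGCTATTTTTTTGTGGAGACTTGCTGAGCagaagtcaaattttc
LBR (codons 210 to 238): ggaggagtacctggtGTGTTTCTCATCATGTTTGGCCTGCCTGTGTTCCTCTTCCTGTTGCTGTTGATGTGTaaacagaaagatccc
In the coding form used, each lamin gene ends instead in a CaaX box, the signal for farnesylation, which starts with a cysteine codon. The shorter LMNA forms, of 491 to 614 codons, were not checked for the box. The last 10 codons of the form used are shown with the box in capitals.
LMNA: acccagagcccccagaacTGCAGCATCATG
LMNB1: agagcatccaatagaagcTGTGCAATTATG
LMNB2: aggaccacctcaagaggcTGCTACGTGATG

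In GRCh38, NEMP1 lies on the minus strand at chr12:57055643-57088063, LBR on the minus strand at chr1:225401502-225428925 and EMD on the plus strand at chrX:154379197-154381523. SUN1 lies at chr7:816615-896435 (plus), SUN2 at chr22:38734725-38794143 (minus), TMPO at chr12:98515512-98550379 (plus) and LEMD3 at chr12:65169571-65248327 (plus). LMNA lies at chr1:156082573-156140089 (plus), LMNB1 at chr5:126776623-126837020 (plus) and LMNB2 at chr19:2427638-2456996 (minus). All are annotated as protein coding. The exons of 6 members share no base with another gene. Those of SUN2 share 24.6% of their bases, with GTPBP1, DNAL4 and antisense genes. SUN1 shares 15.6%, chiefly with GET4, TMPO shares 8.3%, with TMPO-AS1, and LMNB2 shares 5.58%, chiefly with TIMM13. The strand setting of the counting is not given in the sources used here, so reads in the shared bases of these 4 genes are uncertain.

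Total counts ran from 34705126 to 52421161 in the OMM libraries and from 8039176 to 21096586 in the NLS libraries. Replicates differed more at OMM: the biological coefficient of variation was 0.958 at OMM and 0.166 at NLS, and some well-counted genes (a mean of 100 counts or more) had 0 counts in 1 of the 2 replicates, 593 of 12694 in labelled OMM libraries and 533 of 12739 in OMM controls, against 0 at NLS. Of 6 HEK293T marker genes, 5 or 6 were detected in every library. PAX2 had 0 counts in labelled OMM library 3 and in OMM control 4. The HEK293T markers summed to between 156.3 and 478.6 CPM (counts relative to library size, scaled by TMM factors). A list of 6 markers of other cell types summed to between 1.57 and 26.5 CPM. At OMM this second sum was COL1A1 alone, at 13.01 and 26.48 CPM in controls. The HEK293T marker SALL2 had 25.4 and 33.88 CPM in those controls. The nuclear RNAs NEAT1, MALAT1 and KCNQ1OT1 together had 7600 and 8692 CPM in labelled NLS libraries, against 1267 and 1349 CPM in NLS controls. The 13 mtDNA-encoded mRNAs together had 10810 and 14760 CPM in labelled OMM libraries, against 71120 and 39380 CPM in OMM controls.

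At OMM, NEMP1, LBR, SUN1 and SUN2 had higher values in both labelled libraries than in either control. EMD and LMNB2 had lower values in both, and TMPO, LEMD3, LMNA and LMNB1 overlapped between the groups. Among the 9 members other than NEMP1, edgeR's quasi-likelihood test called 0 at an adjusted p under 0.05, with 2 at an unadjusted p under 0.05 (LBR and LMNB2), against 10.6% of all genes. DESeq2 called LBR higher and LMNB2 lower, against 6.53% higher and 5.7% lower among all genes it tested. Of all 14438 genes tested with edgeR at OMM, 0.139% were called higher and 0.0554% lower (20 and 8 genes). Leaving out any 1 library raised these counts to between 128 and 335 higher and between 76 and 279 lower. Of the 9 members other than NEMP1, both labelled libraries lay above both controls for 3 (LBR, SUN1 and SUN2) and below them for 2 (EMD and LMNB2), against 21.3% and 22.5% of all genes tested. The median log2 fold change of the 10 members, the one chosen for its rise included, was 0.30, and that of the other 9 was 0.21, against 0.00 for all genes tested.

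**Figure D1:**
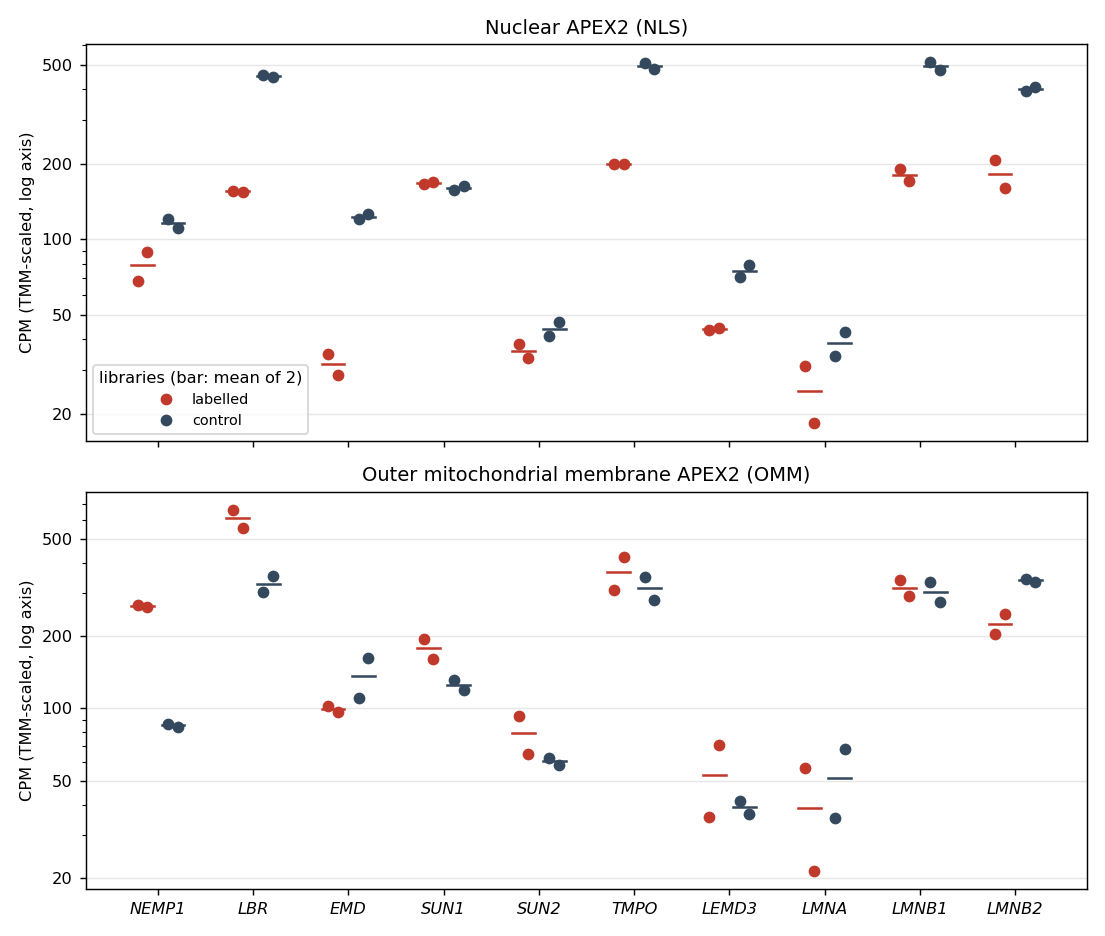
CPM of each member in every library on a log axis, nuclear libraries in the upper panel and OMM libraries in the lower, labelled libraries left of controls, with a bar at the mean of the 2. At NLS the groups of all 10 members are separate, 9 with labelled below control; at OMM NEMP1 shows the widest gap, at 261.3 and 267.1 CPM in labelled libraries and 84.04 and 86.36 CPM in controls.

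NEMP1 encodes a multi-span inner nuclear membrane protein that binds emerin and is linked to the stiffness of the nuclear envelope. It had 267.1 and 261.3 CPM in labelled OMM libraries, against 86.36 and 84.04 CPM in OMM controls. Both labelled libraries lay far above both controls, and the values within each group were close together. The log2 fold change was 1.63 ± 0.23 (SE, from edgeR), and it ranked 981 of 14438 genes by fold (a rank of 1 being the highest fold). It lay between 1.62 and 1.66 when any 1 library was left out.

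LBR encodes the lamin B receptor, a multi-span protein that binds B-type lamins and heterochromatin and whose membrane part resembles sterol reductases. It had 661.9 and 555.4 CPM in labelled OMM libraries, against 303.8 and 351.1 CPM in OMM controls. The groups were separate, and the log2 fold change was 0.89 ± 0.20 (SE), which missed the threshold in edgeR (adjusted p = 0.149). It passed in DESeq2 (adjusted p = 1.67e-05) and in edgeR without the filter on low counts (0.0359). It also passed in the joint fit of 8 libraries (0.0416), which pools the spread of both compartments. Without labelled library 3 the log2 fold change was 1.02. CANX, which encodes the ER chaperone calnexin and was the marker of ER-bound mRNA, had 5564 and 3938 CPM in labelled OMM libraries, against 1413 and 1288 CPM in OMM controls. Its log2 fold change was 1.82 ± 0.20 (SE, adjusted p = 0.0316), and its part in the values of NEMP1 and LBR was not tested.

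The other membrane members had smaller differences at OMM. EMD, which encodes the tail-anchored emerin, had 102.3 and 96.74 CPM in labelled libraries, against 110.7 and 161.3 CPM in controls. The groups did not overlap, but the controls differed from each other by more than the gap between groups, and the log2 fold change of -0.45 ± 0.29 (SE) did not pass (adjusted p = 0.648). SUN1, an inner membrane component of the LINC complex, had 193.9 and 160.2 CPM in labelled libraries, against 131.2 and 119.4 CPM in controls. Its log2 fold change was 0.50 ± 0.25 (SE, adjusted p = 0.533). SUN2, its paralogue, had 93.14 and 65.06 CPM in labelled libraries, against 62.6 and 58.41 CPM in controls. The lower labelled value lay just above the higher control, and the log2 fold change was 0.39 ± 0.35 (SE, adjusted p = 0.81). TMPO, which encodes the membrane-bound and soluble forms of LAP2, had 308.9 and 421.9 CPM in labelled libraries, against 350.2 and 281 CPM in controls. LEMD3, which encodes MAN1, an inner membrane protein that binds SMAD proteins, had 35.57 and 70.49 CPM in labelled libraries, against 41.47 and 36.67 CPM in controls. In both genes 1 labelled library lay among or below the controls. The log2 fold change was 0.21 ± 0.23 for TMPO (SE, adjusted p = 0.887) and 0.44 ± 0.46 for LEMD3 (SE, adjusted p = 0.87), and both signs turned when labelled library 3 was left out (-0.02 and -0.13).

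Among the lamin genes, LMNB2, a B-type lamin, had 202.1 and 244.8 CPM in labelled OMM libraries, against 343.8 and 334.3 CPM in OMM controls. Both labelled libraries were lower than both controls, with a log2 difference of -0.60 ± 0.21 (SE, adjusted p = 0.348 in edgeR, 0.00519 in DESeq2). LMNB1, the other B-type lamin, had 338.9 and 292 CPM in labelled libraries, against 332.5 and 275 CPM in controls. The groups overlapped almost wholly (log2 fold change 0.05 ± 0.21, SE, adjusted p = 0.993), and the sign turned without labelled library 2 (-0.05) or control 4 (-0.07). LMNA, which encodes lamins A and C, had 56.55 and 21.37 CPM in labelled libraries, against 35.25 and 68.01 CPM in controls. Replicates of each group differed by more than the group means did, and the log2 fold change of -0.41 ± 0.57 (SE, adjusted p = 0.932) turned positive without labelled library 3 (0.14) or control 4 (0.15).

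**Figure D2:**
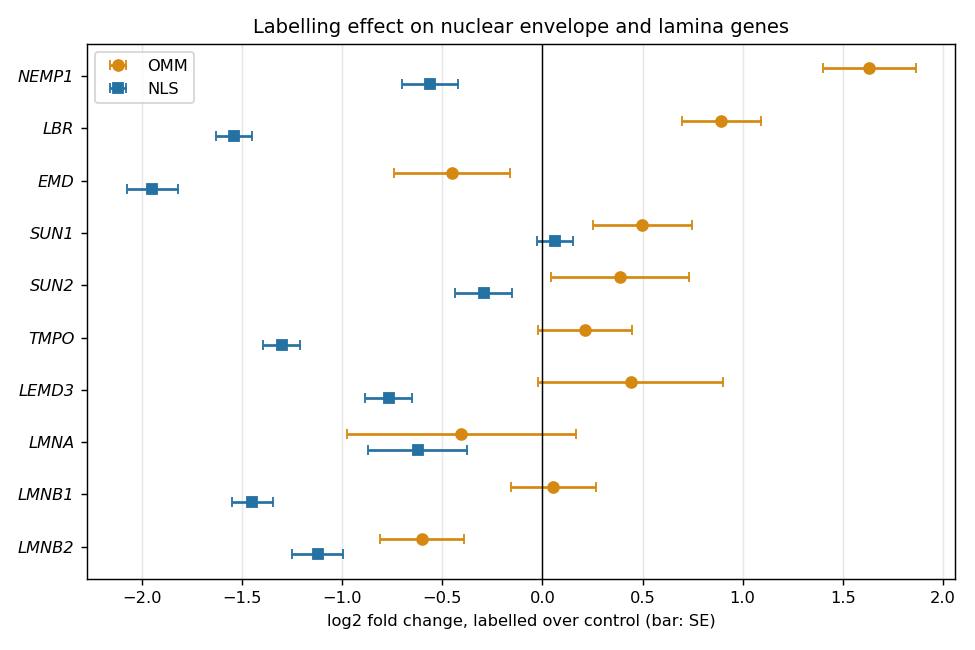
Log2 fold change of labelled over control for each member at OMM (circles) and NLS (squares), with bars of 1 SE; the vertical line marks no difference. NEMP1 lies at 1.63 at OMM and -0.56 at NLS, and every NLS value but that of SUN1 is below 0.

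In the nuclear comparison, the labelled libraries held less mRNA of most members than the controls. At an adjusted p under 0.05 in edgeR, 7 of 10 members fell (NEMP1, LBR, EMD, TMPO, LEMD3, LMNB1 and LMNB2), 0 rose and 3 did not pass (SUN1, SUN2 and LMNA). At an unadjusted p under 0.05 there were 8 of 10, against 62.6% of all genes. DESeq2 likewise called 7 lower and 0 higher, against 20.2% lower and 22.1% higher among all genes it tested. Of all 20858 genes tested at NLS, 28.5% were called lower and 28.8% higher. Both labelled libraries lay below both controls for 9 members and above them for 1, against 37.7% and 45.1% of all genes tested. The median log2 fold change of the members was -0.95, against 0.14 for all genes tested. Without labelled library 1, 3196 genes of all those tested were called higher, and without labelled library 3, 3077 were, against 5999 with all libraries. The cytosolic mRNAs of GAPDH, ACTB and EEF1A1 together had 1909 and 1597 CPM in labelled NLS libraries, against 7165 and 7449 CPM in NLS controls, and CANX fell by 1.59 ± 0.11 on the log2 scale (SE, adjusted p = 2.43e-05). The part of these shifts in the members' values was not tested. In bulk libraries, fewer cells with a transcript and less of it per cell cannot be told apart, and neither can less of it near the enzyme and a smaller share of the captured RNA.

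EMD had the lowest fold of the members at NLS. It had 34.89 and 28.76 CPM in labelled libraries, against 120.2 and 126.2 CPM in controls. The fall was -1.95 ± 0.13 in log2 (SE, adjusted p = 2.18e-05). LBR had 156.7 and 154.2 CPM in labelled libraries, against 455.4 and 447.4 CPM in controls (log2 fold change -1.54 ± 0.09, SE, adjusted p = 1.82e-05). For both genes the gap between groups was many times the spread within them. TMPO had 200.8 and 200.1 CPM in labelled libraries, against 508.9 and 480.2 CPM in controls (-1.30 ± 0.09, SE). LEMD3 had 43.28 and 44.33 CPM in labelled libraries, against 70.38 and 78.86 CPM in controls (-0.77 ± 0.12, SE). Both fell (adjusted p = 2.64e-05 for TMPO and 0.000966 for LEMD3).

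NEMP1 had 68.1 and 89.08 CPM in labelled NLS libraries, against 120.5 and 111 CPM in NLS controls. Both labelled libraries were lower, and it fell by 0.56 ± 0.14 on the log2 scale (SE, adjusted p = 0.00992), the smallest size among the 7 members that passed. The call was lost without labelled library 1 (log2 fold change -0.35, adjusted p = 0.0782) and when libraries were scaled by their size alone (-0.04, adjusted p = 0.817). That scaling moved the median of all genes to 0.66, and NEMP1 then lay 0.70 below that median, as it did under TMM scaling. Scaling shifts the folds of all genes nearly alike, so an unchanged distance does not show that the fall was stable. LEMD3 likewise lost its call under library size (-0.25, adjusted p = 0.101).

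The SUN genes did not pass the test at NLS. SUN1 had 166 and 169.7 CPM in labelled NLS libraries, against 157.8 and 163.3 CPM in NLS controls. The log2 difference was 0.06 ± 0.09 (SE, adjusted p = 0.562). It was called higher with library size alone (0.58, adjusted p = 0.00105). It lay 0.07 below the median of all genes there, a distance that scaling hardly changes for any gene. SUN2 had 38.16 and 33.43 CPM in labelled libraries, against 41.13 and 46.68 CPM in controls. The log2 difference was -0.29 ± 0.14 (SE, adjusted p = 0.112), and its sign turned with library size alone (0.23). It passed without control 1 (-0.39, adjusted p = 0.0242). Both genes share exon bases with others. GET4, which shares bases with SUN1 on the same strand, fell at NLS (log2 fold change -0.44 ± 0.14, SE, adjusted p = 0.0276).

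Of the lamin genes at NLS, LMNB1 had 190.6 and 170.8 CPM in labelled libraries, against 511.8 and 474.9 CPM in controls (log2 fold change -1.45 ± 0.10, SE, adjusted p = 2.6e-05). LMNB2 had 206.8 and 159.8 CPM in labelled libraries, against 391.2 and 407.6 CPM in controls (-1.12 ± 0.13, SE, adjusted p = 0.000208). Both B-type lamin mRNAs fell well beyond the spread of replicates. LMNA had 31.18 and 18.38 CPM in labelled libraries, against 33.99 and 42.71 CPM in controls. Its labelled libraries were lower than both controls but far apart from each other, and the log2 fold change of -0.62 ± 0.25 (SE) missed the threshold (adjusted p = 0.06). It passed without labelled library 1 (-1.03, adjusted p = 0.00543), without control 1 (-0.78, adjusted p = 9.57e-06) and without control 3 (-0.45, adjusted p = 0.015).

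The labelling effect at OMM minus that at NLS was positive under TMM scaling for all 9 members other than NEMP1. The median of all genes was -0.11, and the share of all genes with a positive difference was not counted. SUN1 turned to -0.00084 with library size alone, and LMNA to between -0.24 and -0.17 with library size, RLE factors or DESeq2. Fitted jointly over 8 libraries, the interaction term was 2.46 ± 0.19 for LBR (SE, edgeR, adjusted p = 0.00329), 1.53 ± 0.30 for EMD (0.0303), 1.53 ± 0.26 for TMPO (0.021) and 1.53 ± 0.23 for LMNB1 (0.0138). The joint fit gives each gene 1 spread over both compartments, although replicates differed far more at OMM. Its SEs and p-values may therefore understate the spread at OMM. For LBR the SE was 0.195 here and 0.198 at OMM alone. These 4 of the 9 members other than NEMP1 passed and 0 were lower, against 6.73% higher and 1.41% lower among the 23178 genes tested. The cytosolic mRNAs of GAPDH (1.597, adjusted p = 0.0066), ACTB (1.957, 0.00828) and EEF1A1 (1.704, 0.00387) passed too, as did CANX (3.432, 0.00357). The nuclear RNAs NEAT1 (-4.529), MALAT1 (-3.464) and KCNQ1OT1 (-11.71) were negative, and no mtDNA-encoded mRNA passed. A positive difference was thus not particular to the members, and the part of this wider shift in their values was not tested. For NEMP1 the difference was 2.22 ± 0.23 (SE), given without a test. LEMD3 (1.23 ± 0.46, SE, adjusted p = 0.175), SUN2 (0.71 ± 0.33, SE, 0.269), LMNB2 (0.54 ± 0.23, SE, 0.223), SUN1 (0.46 ± 0.21, SE, 0.258) and LMNA (0.26 ± 0.78, SE, 1) did not pass, which does not show that their labelling effects were alike in both compartments. EMD, LMNB1 and TMPO fell at NLS, while their OMM values did not pass the test.

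These interaction calls were fragile. Without NLS control 1, and likewise without NLS control 3, 0 genes of all those tested passed, although the values hardly moved (LBR 2.41 with adjusted p = 0.0696, and 2.43 with 0.0594). Without labelled NLS library 1 or 3, 1 of the 9 members passed (LBR), and with RLE factors or library size alone 2 did (LBR and LMNB1). Without labelled OMM library 2, EMD no longer passed (1.46, adjusted p = 0.0535) and LEMD3 did (1.61, adjusted p = 0.0206). The scaling moved the median of all genes to -0.52 with RLE factors and -0.57 with library size, against -0.11 with TMM factors. Relative to that median, LBR stood 2.57 higher with TMM factors, 2.56 with RLE factors and 2.57 with library size. Scaling shifts all genes nearly alike, so these equal distances are no sign of stability.

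**Figure D3:**
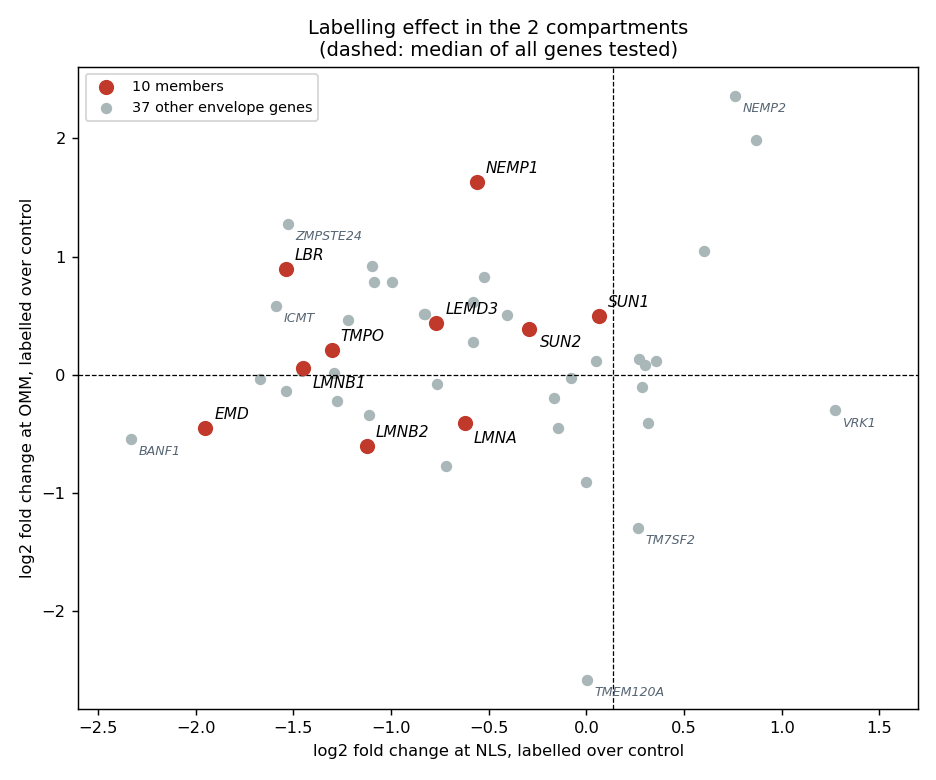
Log2 fold change of labelled over control at OMM against that at NLS for the 10 members (red) and 37 other envelope genes (grey), which leave out ANKLE1, at 0 counts in both OMM controls; dashed lines mark the median of all genes tested. NEMP1, LBR, SUN2, TMPO, LEMD3 and LMNB1 lie above 0 at OMM and below 0 at NLS. EMD, LMNB2 and LMNA lie below 0 on both axes, SUN1 lies above 0 on both, and BANF1 lies farthest left.

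Levels of different members can be set side by side only per length, here as CPM per kilobase of exon. The length was that of all annotated exons of a gene joined, from 2020 bases (EMD) to 11811 bases (SUN1). The order therefore depends on the annotation as well as on the level. In labelled OMM libraries LBR was highest at 115.8 ± 14.4 CPM per kb, and NEMP1, at 46.3 ± 0.7, stood in position 4, where the range of TMPO overlapped its own and those of EMD and LMNB2 lay close to it (SD, n = 2). In OMM controls LMNB1 was highest at 83.6 ± 11.2 CPM per kb (SD, n = 2), followed by EMD at 67.3 ± 17.7, LMNB2 at 62.4 ± 1.2 and LBR at 62.3 ± 6.4. The range of EMD overlapped those of the other 3 genes. TMPO stood at 36.7 ± 5.7, NEMP1 at 14.9 ± 0.3 and SUN1 at 10.6 ± 0.7 CPM per kb (SD, n = 2 each). SUN2, LMNA and LEMD3 were lowest, between 7.02 and 9.32 CPM per kb on average. In labelled NLS libraries NEMP1 had 13.8 ± 2.6 CPM per kb, against 20.3 ± 1.2 in NLS controls (SD, n = 2 each), and LMNB1 was the highest member in both groups. LMNA had the lowest mean in both NLS groups and in labelled OMM libraries. In the labelled OMM libraries its range (3.06 to 8.1) overlapped that of LEMD3 (6.4 to 12.67).

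**Figure D4:**
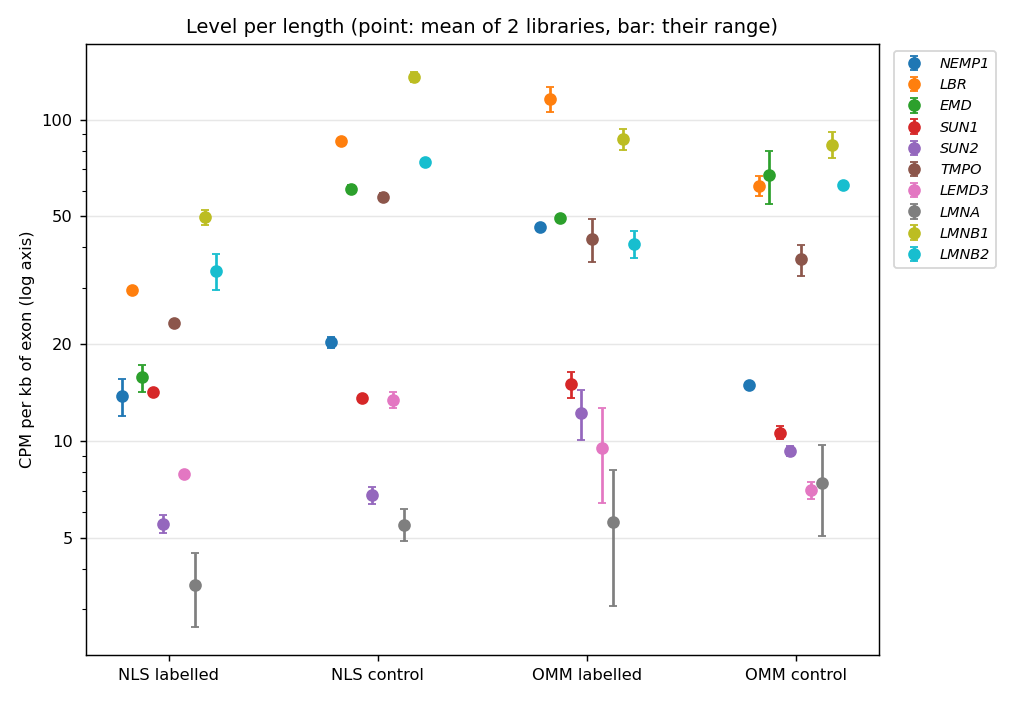
Level per length of each member in the 4 groups, in CPM per kilobase of exon on a log axis; points are means of 2 libraries and bars their range. NEMP1 lies at 46.3 in labelled OMM libraries and at 14.9 in OMM controls, and LMNA has the widest relative ranges.

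Genes whose values across the 8 libraries were nearest to those of NEMP1 were sought among 8181 genes whose mean log2 CPM reached 4 in both compartments, by Euclidean distance of log2 CPM centred within each compartment. Compartment-centred values follow the labelling contrast, so the list is a description. The nearest were FKBP9 (distance 0.335), which encodes an ER-resident prolyl isomerase, and UNC5C (0.365), a netrin receptor. Then came ATP11B (0.38), a phospholipid flippase, GCFC2 (0.398) and REEP3 (0.402), an ER membrane protein. Their log2 fold changes ran from 1.37 to 1.82 at OMM and from -0.72 to -0.46 at NLS. Among the members LBR was nearest, at rank 1138 with a distance of 1.27, and LMNA farthest, at rank 6892 with a distance of 2.55.

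A wider list of 45 genes, called other envelope genes here, was drawn up by role. Besides envelope components it takes in lamin-processing, sealing and lipid-control genes and chromatin partners, and these are not all envelope genes. At OMM 38 of the 45 genes were tested and edgeR called 0, with 6 at an unadjusted p under 0.05 (10.6% over all genes). DESeq2 called 4 higher and 1 lower (6.53% and 5.7% over all genes). Their median log2 fold change at OMM was 0.10, against 0.00 for all genes. At NLS 39 were tested, of which 3 rose and 20 fell, against 28.8% and 28.5% of all genes, and the median was -0.52, against 0.14 for all genes. For the difference between compartments 40 were tested, with 10 higher and 0 lower, against 6.73% and 1.41% of all genes. The 10 became 0 without either NLS control, 4 without labelled NLS library 1 and 3 without labelled NLS library 3, and the 3 that rose at NLS became 1 without labelled library 3, 6 without control 1 and 7 without control 3.

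Among genes of the LEM and BAF group, BANF1, which encodes BAF itself, had the lowest fold of the list at NLS, at 20.6 ± 0.35 CPM in labelled libraries and 103.6 ± 8.51 CPM in controls (SD, n = 2 each). It fell by 2.33 ± 0.13 on the log2 scale (SE, adjusted p = 1.82e-05). VRK1, a kinase that acts on BAF, went the other way, at 194.8 ± 12.5 CPM in labelled NLS libraries and 80.5 ± 7.82 CPM in NLS controls (log2 fold change 1.27 ± 0.11, SE, adjusted p = 5.34e-05). ANKLE2 and ANKLE1, both with LEM domains, also rose at NLS (0.27 ± 0.10, adjusted p = 0.0451, and 1.79 ± 0.47, adjusted p = 0.0122, SE). ANKLE1 was at 0 counts in both OMM controls, so no OMM fold is given. At OMM BANF1 had a log2 difference of -0.54 ± 0.25 (SE, adjusted p = 0.508) and ANKLE2 one of 0.13 ± 0.27 (SE, 0.968).

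In the groups that follow, counts at NLS stand against 28.5% of all genes called lower and 28.8% higher. Of 8 LINC complex and torsin genes tested at NLS, 3 fell, a share near that of all genes, and 0 rose. TOR1AIP1, which encodes the torsin cofactor LAP1, fell by 1.29 ± 0.11 on the log2 scale (SE, adjusted p = 4.76e-05) and had an OMM value of 0.01 ± 0.31 (SE). The giant nesprins SYNE1 and SYNE2 did not pass at NLS (0.29 ± 0.16 and 0.05 ± 0.10, SE) or at OMM (-0.10 ± 1.93 and 0.11 ± 0.46, SE). SYNE1 had 1 count in labelled OMM library 2 and 725 counts in labelled OMM library 3. Of 5 lamin-processing genes, 3 fell at NLS, among them ICMT, the methyltransferase that acts on farnesylated ends (-1.59 ± 0.10, SE, adjusted p = 2e-05). ICMT had a log2 difference of 0.59 ± 0.22 at OMM (SE, adjusted p = 0.384). ZMPSTE24, the protease that trims prelamin A, was singled out after its values were seen. It had 252 and 208.8 CPM in labelled OMM libraries, against 94.95 and 95.08 CPM in OMM controls, with a log2 difference of 1.28 ± 0.24 (SE, adjusted p = 0.108). In the authors' deposited table its log2 fold change at OMM was 1.29 (p-value 5.32e-09). For the 10 members the p-values deposited there matched adjusted p-values from DESeq2. ZMPSTE24 fell by 1.52 ± 0.10 at NLS (SE, adjusted p = 2.29e-05), and its OMM minus NLS difference was 2.83 ± 0.21 (SE, adjusted p = 0.003). Of 8 genes of envelope sealing and lipid control, 5 fell at NLS, with CHMP4B at -1.67 ± 0.17 (SE, adjusted p = 0.000111) and CHMP7 at -1.11 ± 0.16 (SE, adjusted p = 0.00066). Their OMM values were -0.03 ± 0.31 and -0.34 ± 0.43 (SE), both short of the threshold.

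The 8 other inner membrane genes tested at NLS gave 3 that fell, again near the 28.5% of all genes, and 0 that rose. NEMP2, the paralogue of NEMP1, was low, at 11.5 ± 1.48 CPM in labelled OMM libraries and 2.23 ± 1.28 CPM in OMM controls (SD, n = 2 each). Its labelled libraries were both higher, but the log2 fold change of 2.36 ± 1.65 (SE) did not pass (adjusted p = 0.691), and at NLS it was 0.76 ± 0.32 (SE, adjusted p = 0.0697), of the opposite sign to NEMP1. TM7SF2, a sterol reductase related to the membrane part of LBR, had a log2 difference of -1.29 ± 0.69 at OMM (SE, adjusted p = 0.554) and of 0.26 ± 0.31 at NLS (SE, adjusted p = 0.491). Neither passed. At NLS its groups overlapped, with 14.13 and 13.08 CPM in labelled libraries and 7.94 and 14.74 CPM in controls. Its signs, opposite to those of LBR, are therefore uncertain. All 5 chromatin partners of the envelope fell at NLS, with a median of -1.22, against 28.5% called lower and a median of 0.14 over all genes. The fold changes of the members under the alternatives tried are shown in the plot of alternatives.

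**Figure D5:**
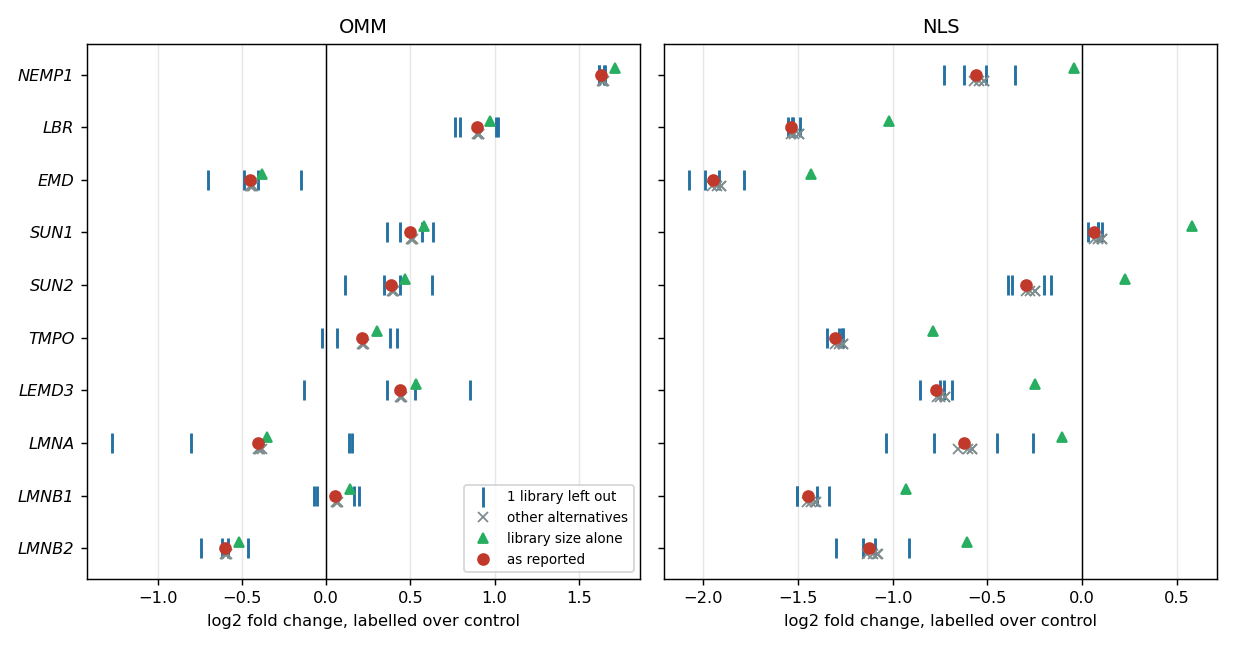
Log2 fold change of labelled over control for each member at OMM (left) and NLS (right): as reported (circles), with 1 library left out (bars), with library size alone (triangles) and under the other alternatives (crosses). NEMP1 at OMM stays between 1.62 and 1.72, whereas LMNA at OMM runs from -1.27 to 0.15 and all NLS values move to the right with library size alone.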

How the data were processed

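Per the file headers and the submitters' processing notes, the authors aligned reads with STAR and counted them per gene with HTSeq, and the deposited values are whole counts. Other tools in the notes are bedtools, DESeq2, SAMtools and Trimmomatic, with builds hg38 and GRCh38.p13. No versions are stated there. For every gene the authors' deposited table adds a log2 fold change, labelled over control, and a p-value. For all 10 members, DESeq2 applied to the deposited counts came within 0.000329 of the authors' log2 fold changes, and its adjusted p-values within 1% of theirs, so the values given for DESeq2 stand for both. A further 4 count columns whose names match no sample were not used. Libraries carry the numbers in the column names (1 and 3 at NLS, 2 and 3 for labelled OMM, 3 and 4 for OMM controls), which differ from those in the sample titles.

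The test was edgeR's (4.0.16, R 4.3.3) robust quasi-likelihood F test, two-sided, applied to the counts with TMM factors, filterByExpr (minimum count 10), a prior count of 0.125 and Benjamini-Hochberg adjustment over all tested genes at 0.05. Each compartment was fitted apart, and the interaction came from a joint fit of 8 libraries. TMM factors lay between 0.8257 and 1.202 (NLS) or between 0.9358 and 1.047 (OMM). CPM use those factors, so 3 counts, taken as the floor, equal between 0.05667 and 0.08469 CPM at OMM and between 0.1714 and 0.3115 CPM at NLS, for counting error only. SEs are the size of a fold divided by the square root of F. DESeq2 was version 1.42.0. No pair of replicates agreed within sampling noise (chi-square per degree of freedom 4.985 to 228.8). The procedure was tested on simulated counts.

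The members, lists and tests were chosen with earlier results of these data known. All members are named; of the other envelope genes, up to 3 highest and 3 lowest called genes per compartment and 8 genes set by name; for likeness, the 5 nearest genes. Protein features were read from GENCODE 29 coding sequences, since no protein table was used here; the coding run of EMD is not reported here. Alternatives were RLE factors, library size alone, no filter, DESeq2, 1 library left out, a replicate block and the joint fit.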

Additional observations from a re-analysis of the deposited data

Results flagged for a closer look

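The labelling effect at OMM minus that at NLS passed its test for 4 of the 9 members other than NEMP1. Among all genes tested, 6.73% were called higher and 1.41% lower. The difference was positive in all 4, at 2.46 for LBR and 1.53 each for EMD, TMPO and LMNB1 on the log2 scale. The cytosolic mRNAs of GAPDH (1.597), ACTB (1.957) and EEF1A1 (1.704) and the ER marker CANX (3.432) passed as well. The nuclear RNAs NEAT1, MALAT1 and KCNQ1OT1 had negative values. A positive difference was thus not particular to the members. EMD, TMPO and LMNB1 fell at NLS, and their OMM values did not pass the test. NEMP1 moved in opposite directions, with both labelled libraries above both controls at OMM and below both at NLS, a difference of 2.22 that was not tested because the gene was chosen for its OMM value. Compartment and library kit cannot be told apart in these differences, and the joint fit pools the unequal spreads of the compartments. The calls were lost without either NLS control, although the values hardly moved.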

How the results depend on the processing

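At NLS, library size alone gave 9122 genes higher and 3351 lower, 1 member higher (SUN1), 13 other envelope genes higher and 12 lower, and turned SUN2 to 0.23. Leaving out 1 NLS library gave 3077 to 8425 genes higher and 1 to 7 other envelope genes higher. At OMM, library size alone gave 48 genes higher and 16 lower, no filter 321 and 145, DESeq2 1000 and 873, and the joint fit 199 and 101. Of the 9 members without NEMP1, no filter, DESeq2 and the joint fit each called 1 higher (LBR), and DESeq2 called 1 lower. Of the other envelope genes, no filter called 1 higher, the joint fit 2 and DESeq2 4, with 1 lower in DESeq2. Leaving out 1 OMM library gave 128 to 335 genes higher, 76 to 279 lower, 0 to 1 of the 9 members higher and 0 to 1 other envelope genes higher. The folds then ran from -0.024 to 0.42 for TMPO, -0.13 to 0.86 for LEMD3, -1.27 to 0.15 for LMNA and -0.069 to 0.20 for LMNB1.

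For OMM minus NLS, RLE factors gave 626 genes higher and library size alone 584, no filter 676 lower and DESeq2 2289 lower. RLE factors and library size alone each left 2 of the 9 members higher and gave 6 and 5 other envelope genes higher. Other envelope genes lower numbered 1 with RLE factors, 1 with library size alone, 1 with no filter and 4 with DESeq2. SUN1 turned to -0.00084 with library size alone, and LMNA to -0.17 with RLE factors, -0.24 with library size alone and -0.17 with DESeq2. Leaving out 1 library gave 0 to 2748 genes higher, 0 to 1454 lower, 0 to 4 of the 9 members higher, 0 to 15 other envelope genes higher and 0 to 2 lower, and -0.65 to 0.79 for LMNA. The cause was not tested.

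Single members' values kept their direction and their side of the threshold in 79 of 90 cases at NLS, and, NEMP1 left out, in 70 of 81 at OMM and 81 of 108 for the difference. With 2 pairs, the shared numbers at NLS do not establish pairing (correlation of deviations -0.0429 over genes); the replicate block gave LMNA -0.65 (adjusted p = 0.0304) and changed no other member's call. No paired analysis was possible at OMM because the arms share only 1 number. At OMM the coefficient of variation was 0.958 over all genes, and a p that misses the threshold there does not show that values did not differ.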
